A study of Rattus norvegicus with 6 samples.

Results

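The mitosis genes examined here are 9 rat genes that act in the last stages of the cell division cycle or mark dividing cells: Top2a, Mki67, Cdk1, Ccnb1, Ccna2, Plk1, Cdc20, Aurka and Aurkb. They were given as a list of Ensembl identifiers with their symbols, and all 9 identifiers were found among the 18413 genes of the deposited count table. All 9 were also among the 14050 genes abundant enough to be tested. The members were chosen by name with results of these libraries in view: Top2a had been selected on its p for TRH against control, among the smallest of all genes, and on groups that did not overlap. The difference between TRH and control is therefore given for the members as a description and supports nothing. The deposited tables carry no gene symbols, so the pairing of symbol and identifier rests on the list alone. Markers of pituitary hormone cells or of other cell types, and other genes of mitosis, were not analysed here for the same reason.

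The study used GH3, an established rat pituitary tumour cell line of wild-type genotype that secretes growth hormone and prolactin. Control cells (labelled NC, 3 libraries) were compared with cells given 100 nM thyrotropin-releasing hormone, TRH (3 libraries), a hypothalamic peptide that acts on a G protein-coupled receptor. The treatment text in the labels names TRH at this dose for all 6 samples alike, so the groups rest on the sample titles and treatment tags, and what the control cells received is not stated. All 6 libraries came from cells grown in F10 medium with horse serum and fetal bovine serum. Neither the length of the treatment nor a separate culture for each library is stated in the labels, so the spread between libraries may be technical.

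Cell division depends on proteins that are made in a wave. Ccna2 (cyclin A2) and Ccnb1 (cyclin B1) are the regulatory partners of the kinase Cdk1, whose activity drives entry into mitosis. Plk1, Aurka and Aurkb are kinases that act on centrosomes, the spindle and the chromosome passenger complex, and Cdc20 activates the ubiquitin ligase that destroys securin and cyclin B so that sister chromatids can part. Top2a untangles and condenses chromosomes, and Mki67 encodes Ki-67, which coats mitotic chromosomes and is widely used to count cycling cells. Their genes are known to be switched on late in the cycle through a promoter element called the cell cycle genes homology region (CHR), bound by the DREAM and MuvB complexes, together with CCAAT boxes bound by NF-Y.

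Promoter windows of 300 bases, 250 before and 50 after the start of transcription (RefSeq, GRCr8), were found for 7 of the 9 genes: Top2a, Mki67, Cdk1, Ccnb1, Plk1, Cdc20 and Aurka. The 4 shown here belong to genes that the expression results turn on, Top2a and Mki67, with the largest differences between groups, and Cdk1 and Ccnb1, with overlapping groups. Letters are 5′ to 3′ along the gene. Capitals mark CCAAT, which on the opposite strand appears as ATTGG. They also mark the CHR in its main form, written TTTGAA on one strand and so TTCAAA when it lies on the other. The other form of the CHR that was searched, spelled TTCGAA, reads alike on both strands.
Top2a (GRCr8 chr10:84473044-84473343, minus strand): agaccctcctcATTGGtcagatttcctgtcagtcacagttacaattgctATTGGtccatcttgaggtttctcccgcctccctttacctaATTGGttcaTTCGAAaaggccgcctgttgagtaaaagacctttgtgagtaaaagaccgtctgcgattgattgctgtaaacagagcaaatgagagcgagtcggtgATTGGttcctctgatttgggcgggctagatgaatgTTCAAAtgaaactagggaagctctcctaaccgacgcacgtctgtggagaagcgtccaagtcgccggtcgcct
Mki67 (GRCr8 chr1:199952544-199952843, minus strand): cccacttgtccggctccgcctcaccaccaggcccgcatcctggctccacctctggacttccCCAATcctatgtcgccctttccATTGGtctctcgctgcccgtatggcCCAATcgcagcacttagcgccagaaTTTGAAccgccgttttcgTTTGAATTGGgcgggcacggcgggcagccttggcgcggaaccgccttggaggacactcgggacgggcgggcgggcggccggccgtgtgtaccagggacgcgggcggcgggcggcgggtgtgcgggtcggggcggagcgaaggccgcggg
Cdk1 (GRCr8 chr20:19265043-19265342, plus strand): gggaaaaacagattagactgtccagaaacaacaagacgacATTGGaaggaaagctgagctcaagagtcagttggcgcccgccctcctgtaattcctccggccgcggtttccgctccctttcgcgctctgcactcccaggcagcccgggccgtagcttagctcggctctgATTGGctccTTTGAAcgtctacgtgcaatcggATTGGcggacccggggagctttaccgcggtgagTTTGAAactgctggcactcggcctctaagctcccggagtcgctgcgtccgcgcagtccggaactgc
Ccnb1 (GRCr8 chr2:33655176-33655475, minus strand): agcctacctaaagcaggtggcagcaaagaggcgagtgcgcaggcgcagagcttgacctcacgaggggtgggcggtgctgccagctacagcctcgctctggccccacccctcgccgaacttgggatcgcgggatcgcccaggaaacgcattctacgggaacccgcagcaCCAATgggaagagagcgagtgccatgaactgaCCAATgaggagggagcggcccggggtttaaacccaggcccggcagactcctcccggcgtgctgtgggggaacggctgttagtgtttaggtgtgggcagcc

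CCAAT letters were present in 6 of the 7 windows, and 37.5% of the 33469 windows in the RefSeq table hold them on either strand. Top2a and Mki67 had 4 CCAAT matches each, Cdk1 had 3, Ccnb1 and Cdc20 had 2 each, and Plk1 had 1. At least 2 matches occurred in 5 of the 7 windows, against 11.2% of all windows. CHR letters of either form searched were present in 5 of the 7, against 19.7% of all windows. Top2a, Mki67 and Cdk1 each held 2 such matches, and Plk1 and Cdc20 held 1. In the Mki67 window one TTTGAA shares a base with the neighbouring CCAAT match. Ccnb1 had no match to the CHR letters searched, and the Aurka window had none to either motif. The Aurka window lies around a start site 2121 bases inside the outermost end of the gene in RefSeq, and the Mki67 site 254 bases inside. The Aurka window therefore does not cover the sequence before the outermost end, and its lack of matches says nothing about a promoter there. It is still counted among the 7. The E2F letters TTTCCCGC and TTTGGCGC, searched in the same way, matched 0 of the 7 windows and 1.45% of all windows. These are matches of letters and do not show that a factor binds there.

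**Figure D1:**
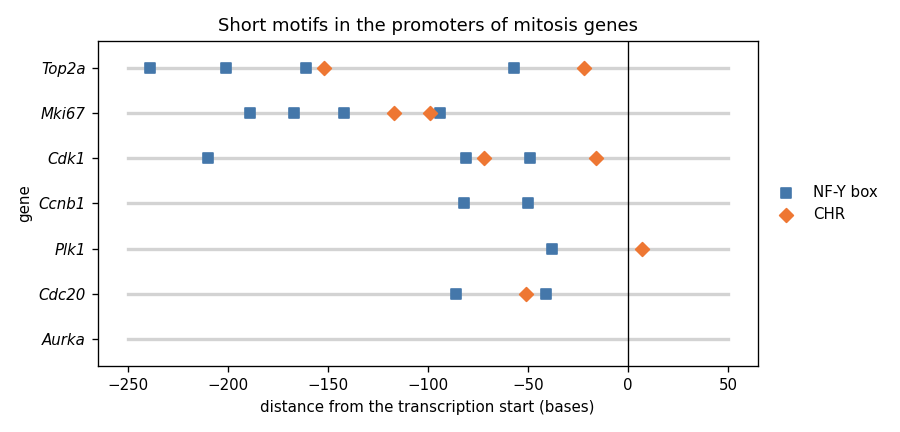
Positions of CCAAT letters (blue squares, labelled NF-Y box) and CHR letters (orange diamonds) in the 7 promoter windows. The horizontal axis gives the distance in bases of the first matched base from the transcription start, drawn at 0. Each gray line is a window. In Top2a and Cdk1 the CHR match closest to the start lies at -22 and -16. The Aurka line is empty, for a window around a start site 2121 bases inside the outermost end of the gene.

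Library totals ran from 43504159 to 52134239 counts. Member counts ran from 887 (Ccna2 in TRH replicate 3) to 9771 (Top2a in control replicate 3), so counting error alone was between 1.01% and 3.36% of each value. The SD of a member between libraries of a group was larger, at 0.092 (Plk1) to 0.41 (Mki67) on the log2 scale. The libraries differed from each other in a way that followed gene length. Relative to the mean of the 6 libraries, the average log2 deviation at the length of Mki67 (9880 bases) minus that at the length of Cdk1 (1411 bases) was 0.34 in control replicate 1, -0.19 in control replicate 2 and 0.22 in control replicate 3. It was 0.06, 0.05 and -0.48 in TRH replicates 1 to 3. Control replicate 1 and TRH replicate 3 thus lay at opposite ends of this trend. RefSeq lists pseudogenes named after Mki67, Cdk1 and Aurka, and gene models that overlap Plk1 (Ern2) and Aurka (Fam210b). How reads shared with such copies were counted is not stated, so the values of these genes carry that uncertainty.

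All 9 genes were expressed in the control GH3 cells, at the 58.4th to the 86.1st percentile of the table's 18413 genes by mean control TPM (a level scaled to gene length and library size). Cdc20 stood highest at 66.4 ± 5.01 TPM, followed by Cdk1 at 66.1 ± 7.48, Plk1 at 62.9 ± 5.99, Top2a at 60.3 ± 5.91 and Ccnb1 at 56.1 ± 11.4 TPM (SD, n = 3 controls). The control ranges of neighbours among these 5 overlapped, so their order is within the spread. Aurka followed at 33.5 ± 2.44 TPM, and its highest control value of 35.4 lay below every control value of Ccnb1. Ccna2 was at 22.3 ± 5.70 TPM, with no overlap with Aurka. Mki67 at 14.8 ± 4.78 and Aurkb at 12.7 ± 1.09 TPM closed the list, and the control values of Mki67 overlapped both those of Ccna2 and those of Aurkb (SD, n = 3). A comparison of levels between genes depends on the deposited gene lengths, whose derivation from the annotation is not stated.

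Top2a (ENSRNOG00000053047), the chromosome topoisomerase, was lower in every TRH library than in every control library. Its level was 214, 192 and 208 CPM (counts scaled to library size, here with TMM factors) in control replicates 1 to 3 and 109, 139 and 122 CPM in TRH replicates 1 to 3. The lowest control thus lay well above the highest TRH library, a gap of 0.47 on the log2 scale. The means were 205 ± 11.8 and 123 ± 14.8 CPM (SD, n = 3 each), a fitted log2 fold change of -0.73 (SE 0.11, 95% interval -0.98 to -0.48), or 0.603 of the control level. It was between -0.81 and -0.63 with each library left out in turn, and -0.69 once control replicate 1 and TRH replicate 3 were both left out. In bulk RNA, fewer cells in division and less of the transcript per dividing cell cannot be told apart.

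Mki67 (ENSRNOG00000028137), the Ki-67 gene and the longest member, had a fitted difference of similar size with a much larger spread. Its level was 117, 67.2 and 81.5 CPM in control replicates 1 to 3 and 65.7, 54.1 and 36.8 CPM in TRH replicates 1 to 3. The groups only just failed to overlap, since control replicate 2 stood 0.03 above TRH replicate 1 on the log2 scale. The log2 fold change was -0.76 (SE 0.25, 95% interval -1.34 to -0.18). With each library left out in turn it was between -0.94 (without TRH replicate 1) and -0.51 (without control replicate 1). It was -0.31 once control replicate 1 and TRH replicate 3 were both left out, the pair at the ends of the length trend.

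Of the cyclins, Ccna2 (ENSRNOG00000015423) was lower in the TRH libraries while the groups of Ccnb1 (ENSRNOG00000058539) overlapped. Ccna2 stood at 40.3, 28.9 and 26.8 CPM in control replicates 1 to 3 and at 25.1, 25.8 and 19.9 CPM in TRH replicates 1 to 3. Control replicate 1 was high and TRH replicate 3 low, and the other 4 libraries lay close together. The log2 fold change was -0.44 (SE 0.18, 95% interval -0.85 to -0.03). With each library left out in turn it was between -0.53 (without control replicate 3) and -0.24 (without control replicate 1). It was -0.13 once control replicate 1 and TRH replicate 3 were both left out. Ccnb1 stood at 40.6, 63.8 and 60.7 CPM in control replicates 1 to 3 and at 52.1, 54.9 and 50.8 CPM in TRH replicates 1 to 3. Here control replicate 1 was the lowest of all 6 libraries, and the TRH libraries lay between it and the other controls. The log2 fold change of Ccnb1 was -0.07 (SE 0.17, 95% interval -0.45 to 0.32), and -0.24 without control replicate 1. Its sign turned without control replicate 2, at 0.07, and without control replicate 3, at 0.02.

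Cdk1 (ENSRNOG00000000632), the kinase that both cyclins activate, showed no separation of the groups. Its level was 47.9, 64.9 and 57.8 CPM in control replicates 1 to 3 and 53.6, 55.6 and 65.1 CPM in TRH replicates 1 to 3. The lowest value was again control replicate 1, and the highest was TRH replicate 3. The log2 fold change was 0.03 (SE 0.14, 95% interval -0.28 to 0.34) on the CPM scale and -0.03 on the log2(TPM + 1) scale, so it has no firm sign. The median of all genes tested was itself lower on the log2(TPM + 1) scale, at -0.058, than on the CPM scale, at -0.00398.

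Among the mitotic kinases, Plk1 (ENSRNOG00000018815) and Aurkb (ENSRNOG00000005659) had small differences and Aurka (ENSRNOG00000004479) almost none. Plk1 averaged 85.5 ± 6.38 CPM over the controls and 76.2 ± 3.83 CPM over the TRH libraries, and its nearest libraries of the 2 groups were 0.01 apart on the log2 scale. Aurkb was at 34.1 ± 2.84 and 29.5 ± 0.952 CPM, with the nearest libraries 0.03 apart (SD, n = 3 each). Their log2 fold changes were -0.17 (95% interval -0.39 to 0.06) and -0.21 (95% interval -0.45 to 0.03). Aurka averaged 48.1 ± 4.24 CPM over the controls and 47.2 ± 3.03 CPM over the TRH libraries (SD, n = 3 each), with overlapping groups and a log2 fold change of -0.03 (95% interval -0.27 to 0.22). Its sign turned with length offsets, at 0.01, and when control replicate 2 (0.05), TRH replicate 1 (0.01) or TRH replicate 2 (0.02) was left out. With length offsets the median of all genes tested was 0.03. Cdc20 (ENSRNOG00000028415), the activator of the anaphase-promoting complex, was at 88.6 ± 8.57 and 86.2 ± 1.97 CPM (SD, n = 3 each), with overlapping groups and a log2 fold change of -0.04 (95% interval -0.27 to 0.19).

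**Figure D2:**
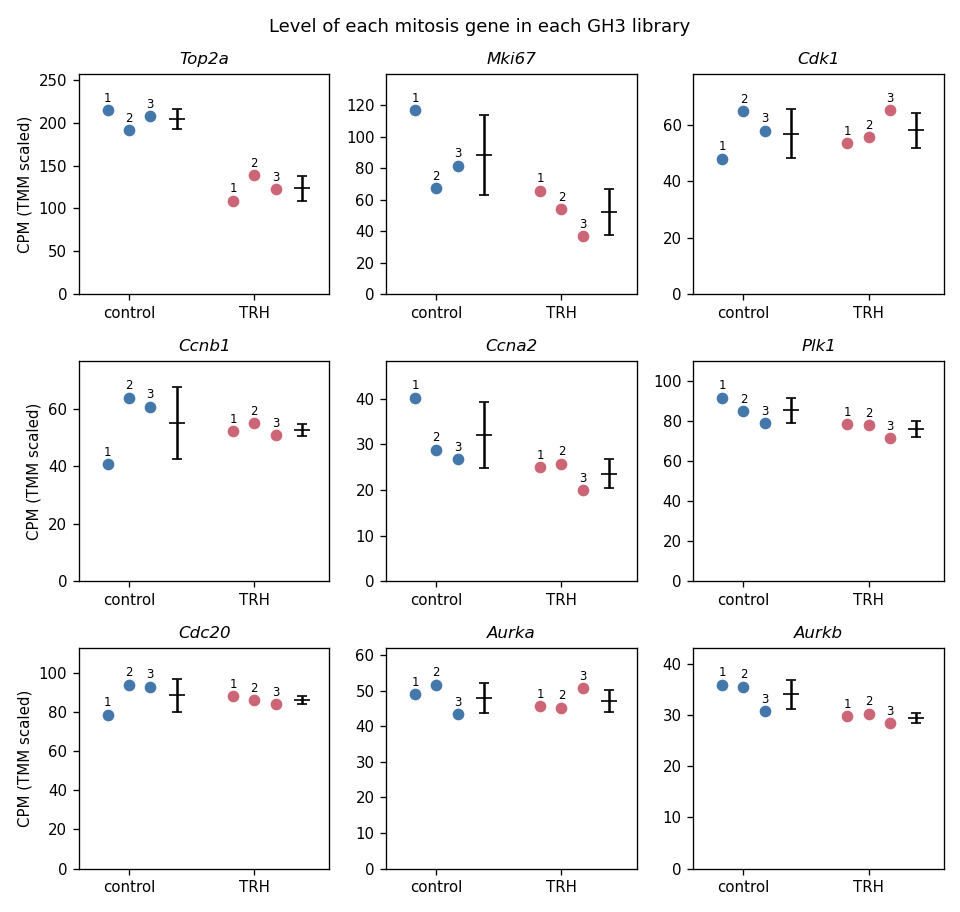
Level of each gene in CPM (TMM scaled, vertical axis from 0) in control (blue) and TRH (red) libraries, with replicate numbers beside the points and the mean ± SD of each group in black. Top2a lies at 192 to 214 CPM in controls and at 109 to 139 CPM with TRH, while control replicate 1 is the highest library for Ccna2 and Mki67 and the lowest for Ccnb1 and Cdk1.

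Read over the list, 8 of the 9 fitted log2 fold changes were below 0, against 50.7% of the 14050 genes tested. With single libraries left out, that number ran from 5 (without control replicate 2) to 9 (without control replicate 1 or TRH replicate 3). It was 7 with length offsets. The share of all genes below 0 was not computed for these fits. Their median over all genes tested was -0.0017 without control replicate 2, 0.0094 without control replicate 1 and -0.0013 without TRH replicate 3. It was 0.029 with length offsets. With all libraries kept and no offsets, the median was -0.17 for the members and -0.00398 for all genes tested. Without Top2a and Mki67 the median of the other 7 members was -0.07. Every TRH library lay below every control library for 5 of the 9 members (Top2a, Mki67, Ccna2, Plk1 and Aurkb), against 10.2% of all genes tested, and for 4 of these 5 the gap was under 0.06 on the log2 scale. The share over all genes rose with gene length. Over 5 length groups of 2810 genes it went from 3.45% in the shortest to 17.5% in the longest. The longest group holds Top2a, Mki67 and Aurkb, while Ccna2 and Plk1 lie in the middle group, at 10.1%. No member had every TRH library above every control library, which 6.8% of the genes tested had. In edgeR's quasi-likelihood test with Benjamini-Hochberg adjustment, 0 of the 9 members and 0% of all genes tested passed the threshold of 0.05. The adjusted p of the members ran from 0.395 to 0.954. An unadjusted p under 0.05 was found for 3 of the 9 members (Top2a, Mki67 and Ccna2) and for 1263 of the 14050 genes tested. Top2a had been selected on its p for this contrast. DESeq2's Wald test, which called 0.835% of the genes to which it gave an adjusted p, called 1 member, Top2a (DESeq2 adjusted p = 0.00023). Its calls lower with TRH made up 0.732% of those genes. Because Top2a was chosen for this contrast, nothing is read from that call.

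The intervals of the fitted changes show what these libraries allow for each gene. The 95% interval lay within 1.5-fold in either direction for 6 of the 9 members (Cdk1, Ccnb1, Plk1, Cdc20, Aurka and Aurkb), as it did for 54.6% of all genes tested. It lay within 2-fold for all members but Mki67, and for 82% of all genes tested. Each interval is for a single gene, with no allowance for the number of genes tested, 14050. Its width rests on the spread between these 6 libraries, with a variance that edgeR partly shares across the genes tested.

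**Figure D3:**
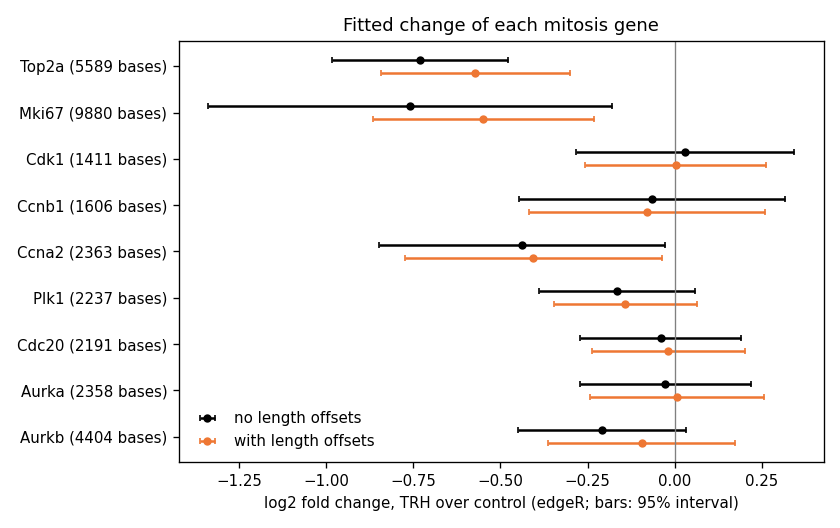
Fitted log2 fold change of each gene, TRH over control, with its 95% interval, from edgeR without (black) and with (orange) offsets for gene length; deposited lengths stand beside the names. Top2a moves from -0.73 to -0.57 and Mki67 from -0.76 to -0.55 with the offsets, and the intervals of 6 genes cross 0 in both fits.

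The members differ in length, so each was set against the length trend of the libraries, the average log2 deviation of all tested genes at that length. At the length of Top2a (5589 bases) the trend itself gave a TRH minus control difference of -0.15, against -0.74 for the gene. At the length of Mki67 it gave -0.22 against -0.76, and at the length of Aurkb (4404 bases) -0.12 against -0.21. For the other 6 members, of 1411 to 2363 bases, the trend gave between -0.03 and 0.03. Offsets that remove the trend left log2 fold changes of -0.57 for Top2a (95% interval -0.84 to -0.30), -0.55 for Mki67 (-0.87 to -0.23), -0.41 for Ccna2 (-0.77 to -0.04) and -0.09 for Aurkb (-0.36 to 0.17). The median over the members became -0.09, with 0.03 for all genes tested. With the trend removed, 3 members (Top2a, Mki67 and Ccna2) still had every TRH library below every control library, against 7.87% of all genes tested.

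Subtracting the trend narrowed the spread of Mki67 within groups and widened that of Top2a. The SD of Mki67 between libraries of a group was 0.41 on the log2 scale and 0.21 after the trend was subtracted. For Top2a it was 0.14 before and 0.18 after. The SD also rose for Aurkb (0.093 to 0.145), Aurka (0.112 to 0.138) and Cdc20 (0.104 to 0.110). It fell for Cdk1, Ccnb1, Ccna2 and Plk1. In TRH replicate 1, where the trend at the length of Top2a was 0.03, Top2a had its lowest deviation, -0.54. In TRH replicate 3 the trend of -0.28 made up most of its deviation of -0.37. In TRH replicate 2 the deviation was -0.19 and the trend 0.02. An effect of TRH that itself depended on gene length would be removed by the offsets as well.

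**Figure D4:**
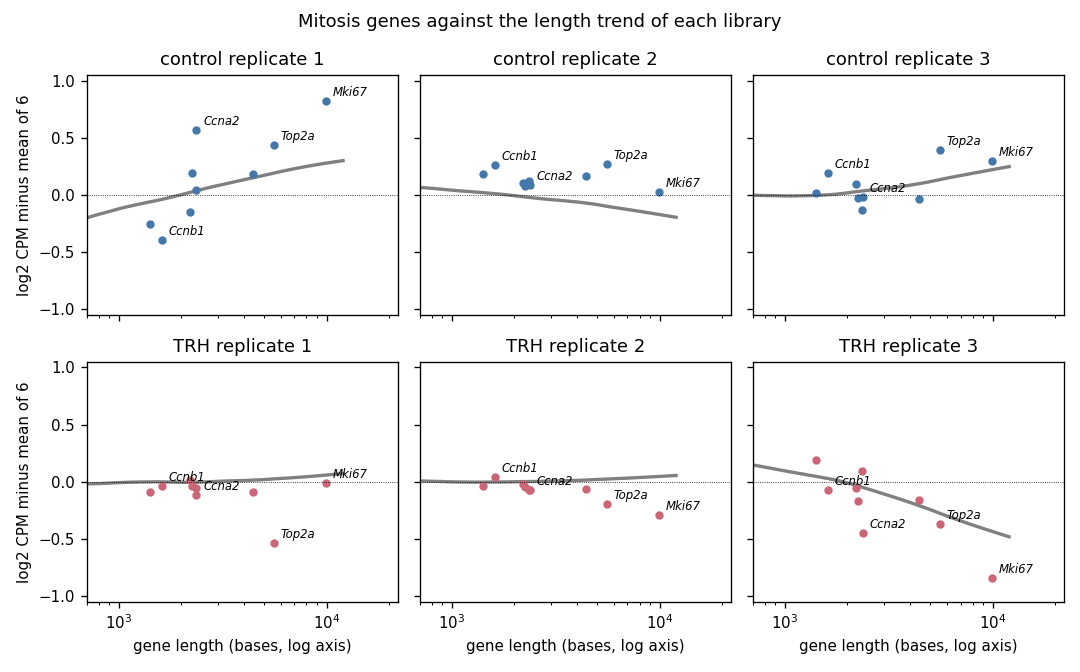
Deviation of each gene's log2 CPM from its mean over the 6 libraries (points) against gene length in bases (log axis), 1 panel per library, with the average deviation of all tested genes at each length as a gray line. The line climbs with length in control replicate 1 and descends in TRH replicate 3; Top2a lies far below it in TRH replicate 1, at -0.54 where the trend is 0.03.

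Differences between libraries of the same treatment are a separate measure from the TRH contrast, and in them the members did not all move the same way. Control replicate 1 was the highest control for Top2a, Mki67, Ccna2, Plk1 and Aurkb, and the lowest for Cdk1, Ccnb1 and Cdc20. Ccna2 was 0.35 above its control mean there on the log2 scale, and Ccnb1 0.41 below its own. The ratio of Ccna2 to Ccnb1 in TPM was 0.673 in control replicate 1, while the other 5 libraries gave 0.267 to 0.327, so it was 2.19 times their median. The length trend at their lengths gives 0.08 of that difference of 1.13 on the log2 scale. The ratio of Ccna2 to Cdk1 was likewise 0.501 in control replicate 1 and 0.183 to 0.279 elsewhere. The ratio of Cdc20 to Plk1 was 0.874 there and at least 1.12 in each of the other 5 libraries. Each of these is a single library, so the differences have no replicate check.

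With each group's mean removed, the deviations over the 6 libraries of Ccnb1 and Cdc20 ran together (Pearson r = 0.97), as did those of Ccna2 and Plk1 (r = 0.95), while Mki67 and Cdk1 ran opposite (r = -0.97). Over the 36 pairs of members, 15 coefficients were above 0 and 20 below. The points are 6 deviations that share libraries, scaling and 2 group means, so these coefficients are descriptions. Top2a had none above 0.27 with another member, although with the length trend subtracted its coefficient with Cdk1 was 0.65 and that with Mki67 was -0.66. The ratio of Top2a to Mki67 ranged from 2.93 to 5.88 over the TRH libraries and from 3.25 to 5.04 over the controls.

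**Figure D5:**
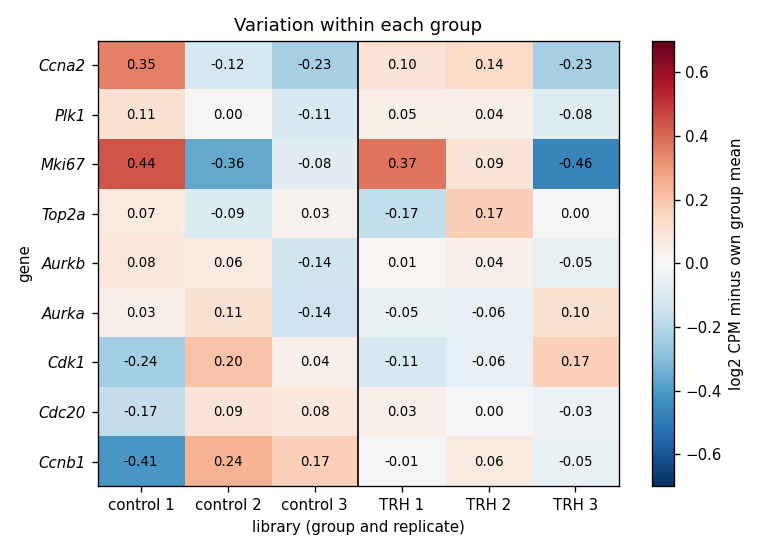
Deviation of each gene's log2 CPM from the mean of its own group, by library, with the vertical line between control and TRH libraries and the colour scale in log2 units. Control replicate 1 is above its group mean for Ccna2 (0.35) and Mki67 (0.44) and below it for Ccnb1 (-0.41) and Cdk1 (-0.24).

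The mean of the members' log2 deviations was 0.16, 0.15 and 0.09 in control replicates 1 to 3 and -0.11, -0.08 and -0.20 in TRH replicates 1 to 3. Without Top2a and Mki67 it was 0.03, 0.14 and 0.01 in the controls and -0.06, -0.04 and -0.09 with TRH. Among the 11809 other tested genes with a mean log2 CPM of at least 1, the pattern most like the mean of the 9 belonged to ENSRNOG00000043345 and ENSRNOG00000013057 (Pearson r = 0.995 each over 6 libraries). The first averaged 16.8 ± 0.525 CPM over the controls and 14.6 ± 0.523 CPM over the TRH libraries, and the second at 80.9 ± 4.95 and 62.6 ± 4.20 CPM (SD, n = 3 each). Neither identifier was paired with a symbol. They are the extreme of many coefficients over few libraries, and share libraries and scaling with the members. Group means were not removed, so these coefficients include the difference between TRH and control on which Top2a was selected.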

How the data were processed

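Total RNA from 6 GH3 libraries (3 control, 3 TRH) was sequenced on an Illumina instrument, per the labels' protocols. HISAT2 and bedtools are listed in the submitters' processing notes, without version, genome build, annotation or counting rule. The deposited count table holds raw read counts by Ensembl identifier, and a second one repeats the counts and adds gene length in bases, FPKM and TPM. FPKM and TPM deposited by the authors were recomputed from counts and lengths to rounding error, and TPM is used here for levels between genes.

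The members and all lists were chosen with earlier results of these data known. Every member in the list is named, and so are the 2 genes most like their mean. Genes kept by filterByExpr were tested with edgeR 4.0.16 (quasi-likelihood, TMM, R 4.3.3), without a block, with Benjamini-Hochberg adjustment over all of them. Standard errors come from the coefficient and its F value. CPM are TMM scaled; log2 CPM carry a prior count of 2. The length trend is a loess (span 0.5), per library, of a gene's log2 CPM minus its mean over libraries, against log2 length. Alternatives were DESeq2 1.42.0 (size factors or Wald test), limma 3.58.1 (voom, or log2 TPM with a pseudocount of 1 or 0.1), other filters, a replicate block, length offsets and left-out libraries. The edgeR fits, with and without length offsets, were tested on simulated data. Libraries of a group differed by more than sampling noise in all 6 pairs (chi-square over degrees of freedom 13.7 to 110.0).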

Additional observations from a re-analysis of the deposited data

How the results depend on the processing

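edgeR called 0 genes, and again 0 with length offsets, DESeq2 size factors, limma voom, both other filters and limma on log2 TPM with either pseudocount. DESeq2's test called 106, Top2a among them at -0.72. Leaving out single libraries gave 0 to 1 calls, the 1 when TRH replicate 3 was absent, and leaving out the pair of control replicate 1 and TRH replicate 3 gave 1, none of them a member. With length offsets the members' median went from -0.17 to -0.095. The number of members with every TRH library below every control went from 5 to 3, and the share of all genes tested from 10.2% to 7.87%. The number of such members was 4 with DESeq2 size factors and 4 on log2 TPM with a pseudocount of 1. The share over all genes was not computed for either of these settings, so nothing is read from those counts. Of 144 alternative values for single members, 131 kept their sign. The 13 that turned belong to Cdk1, Ccnb1, Cdc20 and Aurka, whose intervals hold 0. Cdk1 (0.030) turned to -0.031 and -0.032 on log2 TPM with pseudocounts of 1 and 0.1, and to -0.17 in the absence of control replicate 1 and TRH replicate 3. Aurka turned to 0.0065 with length offsets. The median of all genes tested was -0.00398 in the edgeR fit without offsets and 0.029 with length offsets. On log2 TPM it was -0.058 with a pseudocount of 1 and -0.069 with 0.1. With single libraries left out, Cdk1 ran from -0.079 (control replicate 1) to 0.16, Ccnb1 from -0.24 to 0.074 (control replicate 2), Cdc20 from -0.12 to 0.025 (control replicate 2) and Aurka from -0.089 to 0.051 (control replicate 2). The cause was not tested.

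Both groups use replicate numbers 1 to 3, which nothing in the labels ties to a shared day or culture. With the replicate block edgeR again called 0 genes, the median of the members was -0.16, and no member changed sign. Deviations of equal-numbered libraries correlated at 0.29, -0.26 and -0.12 across genes, so no pairing was assumed.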
